A study of Mus musculus with 16 samples.

Results

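Collagen genes were taken as every row of the gene count tables whose symbol is Col, a type number, the letter a and a chain number. The rule found 43 of 22609 gene symbols, and it used no measured value. Col4a3bp, whose symbol begins like that of a collagen chain but goes on, was not a member. By the class of the protein they encode, the 43 genes were 11 fibrillar, 6 basement membrane, 6 beaded filament, 9 FACIT (fibril-associated collagens with interrupted triple helices), 2 multiplexin, 4 transmembrane and 3 network collagens, with Col7a1 and Col28a1 left as others.

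The 16 libraries came from sensory neurons sorted from 4 kinds of ganglion, with 4 libraries each: trigeminal ganglion (TG), nodose and jugular ganglia (NG/JG, labelled as nodose ganglion), lumbar dorsal root ganglia (L3-L5 DRG) and thoracolumbar dorsal root ganglia (T10-L1 DRG). All mice were naive adult male C57BL/6J mice carrying Pirt cre/- and Rosa26 LSL-tdTomato/+, so that Cre from the Pirt locus switched on the red reporter in sensory neurons. Cells with medium to bright TdTomato were sorted in 2 cycles, and RNA was amplified by SMART-seq2, which primes on poly(A) tails. No group was treated and none lacked a gene, so the ganglia were compared with each other. The labels do not say whether the libraries of a ganglion came from separate animals, and p-values then measure only the spread between these libraries.

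Collagens are secreted or membrane proteins in which chains wind into a triple helix, in which glycine recurs with a pair of other residues between. Fibroblasts lay down types I, III and V as fibrils, while type IV forms the sheet of basement membranes under endothelium and around Schwann cells and satellite glia. Sensory neurons are not known as a main source of fibrillar collagen, so in a sorted neuronal fraction these genes are read here as a measure of RNA that other ganglion cells may have carried in. In bulk libraries, fewer cells of a type and less RNA per cell cannot be told apart.

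The sequence feature that defines the family is shown for 4 members on which the results below turn. Each stretch is 54 coding bases of genome build mm9, 5′ to 3′ on the strand of the gene, inside 1 coding exon, and the capitals mark the codons for glycine, which recur with a pair of other codons between. The Col1a1 stretch lies at chr11:94799818-94799871 on the plus strand in coding exon 5, that of Col3a1 at chr1:45379251-45379304 on the plus strand in coding exon 4, that of Col4a1 at chr8:11247042-11247095 on the minus strand in coding exon 3, and that of Col28a1 at chr6:8116662-8116715 on the minus strand in coding exon 5.
Col1a1: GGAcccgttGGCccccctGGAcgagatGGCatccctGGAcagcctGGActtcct
Col3a1: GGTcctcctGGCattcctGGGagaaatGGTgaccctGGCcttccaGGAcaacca
Col4a1: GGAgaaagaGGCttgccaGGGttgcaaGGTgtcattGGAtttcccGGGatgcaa
Col28a1: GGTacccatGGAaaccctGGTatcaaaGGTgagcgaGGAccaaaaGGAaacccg

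All 43 collagen genes held a run of at least 10 such glycine triplets in their longest coding transcript, against 51 of 22551 other protein-coding genes (0.226%). The classes differed in how long the runs were. In Col3a1 the longest run was 344 triplets and in Col1a1 338, whereas in Col4a1 it was 40 and in Col28a1 28. Fibrillar genes are also built from exons of 54 bases, which made up 49.0% of the internal coding exons of Col3a1 and 4.0% of those of Col4a1. This was not particular to fibrillar genes. Among FACIT genes the share was 46.7% in both Col9a2 and Col9a3, and 6.35% in Col12a1. Col4a1 and Col4a2 lie head to head and their annotated first exons overlap by 22 bases at chr8:11312805-11312826, shown on the plus strand because a read that overlaps both genes cannot be given to one of them.
Col4a1 and Col4a2: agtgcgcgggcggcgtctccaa

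Between 4735624 and 13333318 reads per library fell on genes, and 29.6% to 66.6% of uniquely aligned reads fell outside them. A count of 3, used as the floor, was worth 0.225 to 0.633 CPM, the reads of a gene scaled to the same total of reads on genes in each library. The library L3-L5 DRG 4 stood apart, with the fewest reads on genes, the largest share outside them and 18571 genes with reads, where the others had 10132 to 16694. TG 1 also stood apart from the other TG libraries in its collagens, as described below, and calls between ganglia are given with and without it. Levels of single genes are given as RPKM, which is CPM per kilobase of exon.

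Collagen reads were found in every library. Summed over the 43 genes they came to 3959, 1347, 1313 and 1454 CPM in TG 1 to 4, to 3910.5, 2709.5, 1616 and 3673 CPM in NG/JG 1 to 4, to 4730.3, 1431, 910.5 and 5378 CPM in L3-L5 DRG 1 to 4, and to 3653, 4543, 4260.5 and 7514 CPM in T10-L1 DRG 1 to 4. The mean was lowest in TG (2018 ± 1295 CPM, SD, n = 4), followed by NG/JG (2977 ± 1046) and L3-L5 DRG (3113 ± 2268), and highest in T10-L1 DRG (4993 ± 1721). With 1 library left out the mean was 1371 to 2253 CPM in TG, lowest without TG 1, 2666 to 3431 CPM in NG/JG, 2357 to 3847 CPM in L3-L5 DRG and 4152 to 5439 CPM in T10-L1 DRG, so the order of NG/JG and L3-L5 DRG depended on the library left out. The ranges of T10-L1 DRG and of each other ganglion overlapped, and L3-L5 DRG held both the lowest and the second highest library. Fibrillar collagens supplied 36.9% to 77.4% of the sum.

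**Figure D1:**
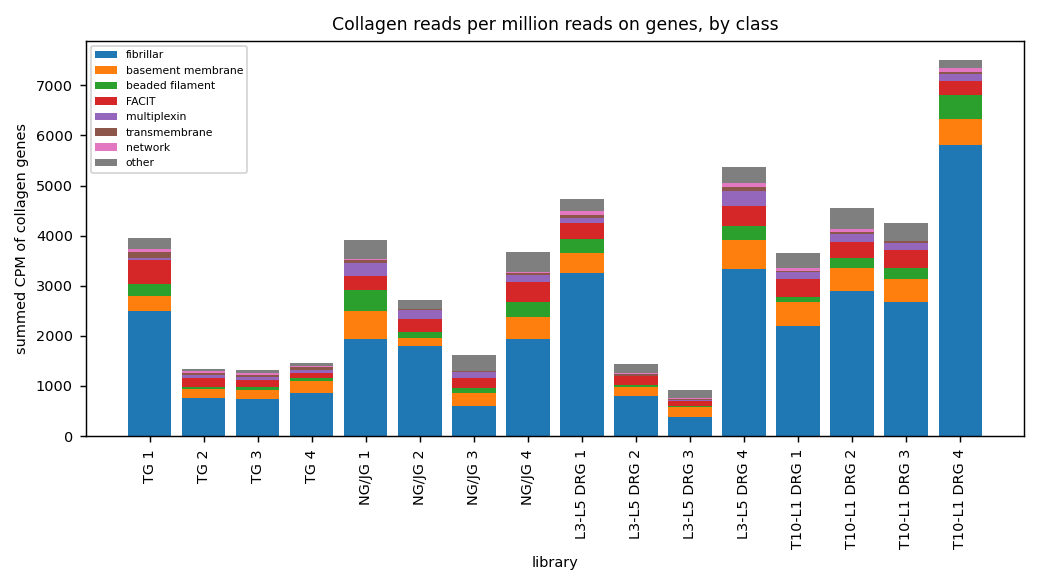
Bars show the summed CPM of the collagen genes in each of the 16 libraries, stacked by class. T10-L1 DRG 4 reached 7514 CPM and L3-L5 DRG 3 910.5 CPM, and fibrillar collagens made up the tallest segment in all 16 libraries.

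The abundance of the genes was steep. On average over the 16 libraries, 17 of the 43 genes exceeded 5 RPKM and 18 stayed under 1 RPKM. Col3a1, Col1a1 and Col1a2 together supplied 47.4% of the mean collagen CPM. Above the floor in all 16 libraries were 15 genes, and 16 genes were above it in fewer than 12 libraries.

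**Figure D2:**
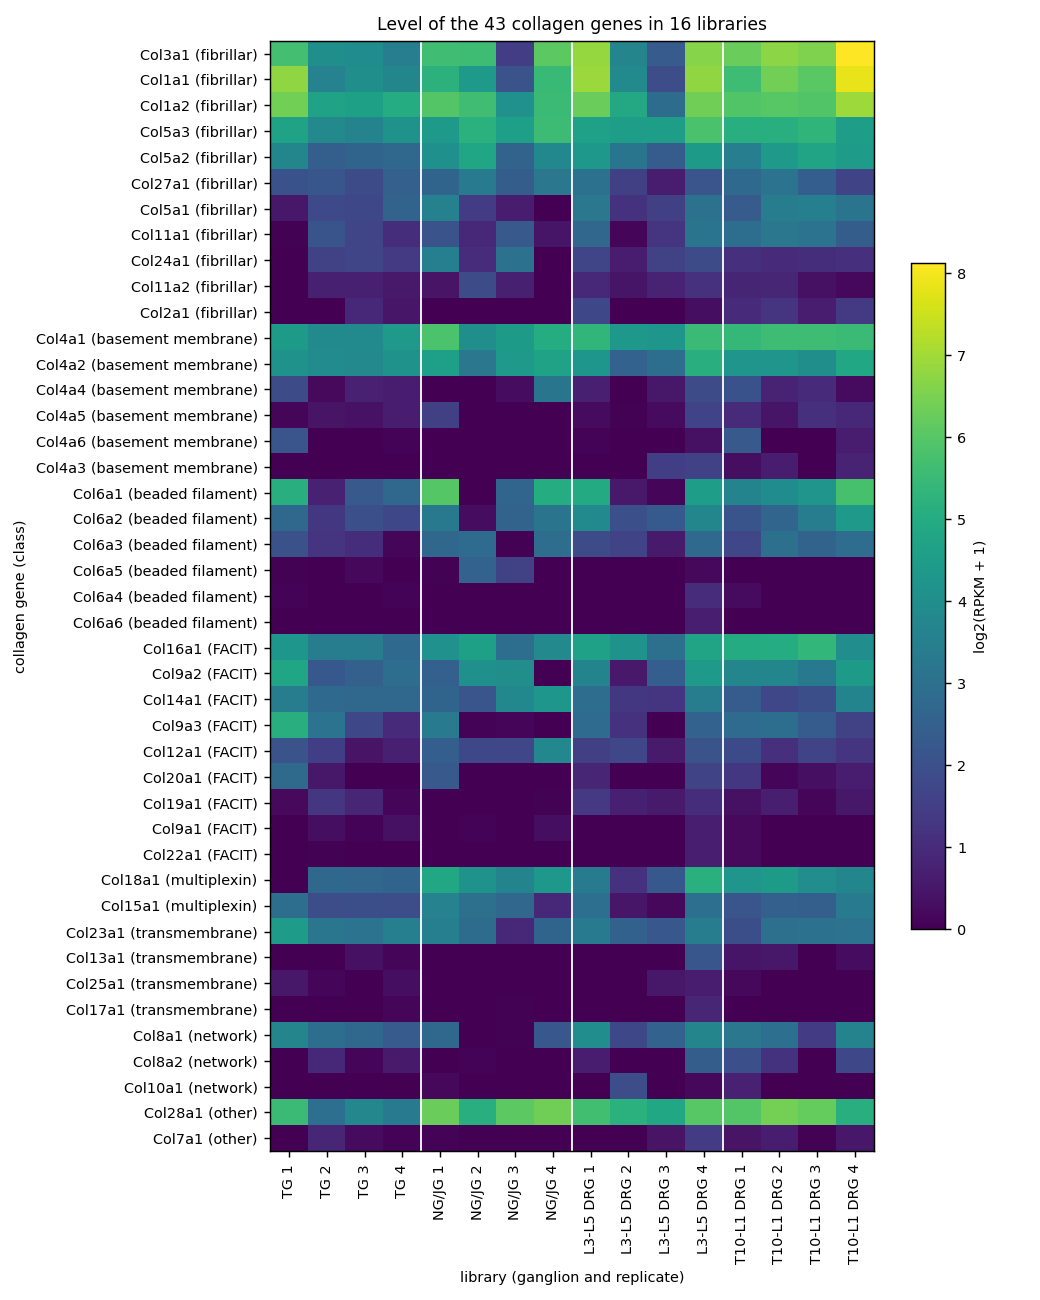
Colour shows log2(RPKM + 1) of each collagen gene (rows, by class) in each library (columns, by ganglion). Col1a1 and Col3a1 are brightest in T10-L1 DRG 4 (229 and 278 RPKM) and dark in NG/JG 3 (3.26 and 1.76 RPKM), and Col4a1 is at 13.4 RPKM or more in all 16 libraries.

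Col1a1 and Col1a2, the chains of type I collagen, and Col3a1, the single chain of type III collagen, were the 3 most abundant members. Col3a1 measured 51.4, 15.6, 14.4 and 10.1 RPKM in TG 1 to 4 and 76.9, 103, 93.3 and 278 RPKM in T10-L1 DRG 1 to 4. Every T10-L1 DRG library was above every TG library, as was so for 13.2% of all genes tested. It measured 48.5, 48.0, 1.76 and 66.5 RPKM in NG/JG 1 to 4 and 113, 11.9, 4.03 and 98.9 RPKM in L3-L5 DRG 1 to 4, where replicates 1 and 4 were high and 2 and 3 low.

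Col1a1 was high and low in the same L3-L5 DRG libraries. It measured 109, 11.2, 15.5 and 12.3 RPKM in TG 1 to 4, 36.5, 19.6, 3.26 and 43.1 RPKM in NG/JG, 118, 13.4, 2.80 and 110 RPKM in L3-L5 DRG, with 47.9, 84.1, 65.3 and 229 RPKM for T10-L1 DRG. TG 1 was far above the other TG libraries and inside the range of T10-L1 DRG. Col1a2 was less variable, with its lowest level in L3-L5 DRG 3 (6.39 RPKM) and its highest in T10-L1 DRG 4 (121 RPKM). The RPKM ratio of Col1a1 to Col1a2 ran from 0.199 in NG/JG 3 to 1.89 in T10-L1 DRG 4, although in the protein the chains are joined at a fixed ratio. The size of that ratio rests on exon length, since the annotated union of exons of Col1a2 (12145 bases) is longer than its longest coding transcript (5347 bases). With the length of that transcript the mean of Col1a2 was 118 RPKM in place of 52.1 RPKM and it ranked first.

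Type V collagen regulates the width of type I fibrils, and its chains differed in pattern. Col5a3 had means of 16.6 ± 5.72 RPKM in TG, 31.2 ± 11.9 in NG/JG, 31.7 ± 7.07 in T10-L1 DRG and 30.8 ± 15.9 in L3-L5 DRG (SD, n = 4). Col5a2 ranged from 4.20 RPKM in L3-L5 DRG 3 to 26.2 RPKM in NG/JG 2. Col5a1 ranged from 0 in NG/JG 4 to 10.8 RPKM in NG/JG 1, and its counts in TG 1 to 4 were 30, 106, 118 and 244, so TG 1, the richest TG library in type I collagen, was the poorest in Col5a1.

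The cartilage-type fibrillar genes were low. Col11a1 had 2 counts in TG 1 and reached 8.30 RPKM in T10-L1 DRG 2. Col2a1, the main collagen of cartilage, had 37, 85, 43 and 129 counts in T10-L1 DRG 1 to 4 and 0, 1, 0 and 0 in NG/JG 1 to 4. Among the minor fibrillar chains, Col27a1 lay between 0.576 and 9.48 RPKM, Col24a1 between 0 and 10.3 RPKM, and Col11a2 did not exceed 2.70 RPKM.

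**Figure D3:**
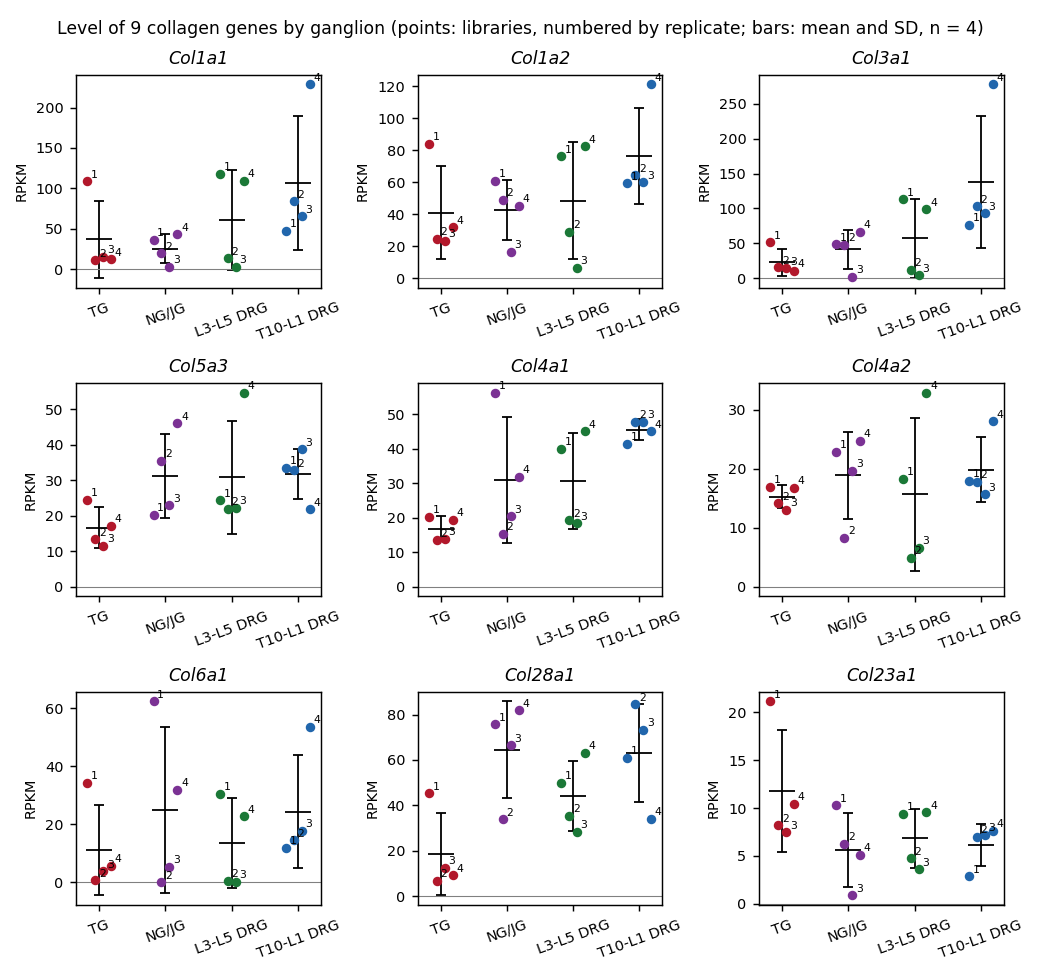
Points are the RPKM of 9 collagen genes in each library, numbered by replicate, and the bars are the mean and SD (n = 4 per ganglion). Replicate 1 of TG stands above the other TG libraries for Col1a1, Col3a1, Col1a2, Col6a1 and Col28a1, and the 4 T10-L1 DRG libraries lie close together for Col4a1.

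Among basement membrane collagens, Col4a1 and Col4a2, whose products assemble with each other, were detected in all libraries. Col4a1 measured 20.3, 13.4, 13.9 and 19.4 RPKM in TG 1 to 4 and 41.5, 47.9, 47.7 and 45.1 RPKM in T10-L1 DRG 1 to 4. The ranges did not overlap, and the spread within T10-L1 DRG was small (45.5 ± 3.01 RPKM). In NG/JG it was 56.2, 15.4, 20.4 and 31.9 RPKM and in L3-L5 DRG 40.0, 19.3, 18.4 and 45.0 RPKM. Col4a2 averaged 15.3 ± 1.95 RPKM in TG and 19.8 ± 5.55 RPKM in T10-L1 DRG, so that the ratio of Col4a1 to Col4a2 was 0.948 to 1.20 in TG and 1.61 to 3.05 in T10-L1 DRG. In NG/JG the ratio was 1.04 to 2.46, overlapping both, and in L3-L5 DRG 1.37 to 3.93. These ratios were not tested.

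The other type IV chains were sparse. Col4a3, a chain of the kidney glomerular basement membrane, had 0 counts in all 8 TG and NG/JG libraries, 0, 0, 223 and 93 counts in L3-L5 DRG 1 to 4 and 15, 57, 2 and 97 in T10-L1 DRG 1 to 4. Col4a6 came almost wholly from TG 1 (218 counts), T10-L1 DRG 1 (201) and T10-L1 DRG 4 (61). Col4a5 had a maximum of 2.14 RPKM in L3-L5 DRG 4. Col4a4 peaked at 7.86 RPKM in NG/JG 4.

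Type VI collagen forms beaded filaments near cell surfaces, and its chains differed widely between libraries. Col6a1 measured 34.2, 0.672, 3.83 and 5.60 RPKM in TG 1 to 4, 62.4, 0, 5.22 and 31.9 RPKM in NG/JG, 30.5, 0.474, 0.0750 and 22.7 RPKM in L3-L5 DRG, with 11.8, 14.5, 17.7 and 53.5 RPKM for T10-L1 DRG. NG/JG 2 held no Col6a1 read, which allows up to 3 counts, while Col6a3 in the same library had 655 counts. Col6a2 ranged from 0.219 RPKM in NG/JG 2 to 19.7 RPKM in T10-L1 DRG 4. Col6a5 was found mainly in NG/JG 2 and 3, with 401 and 138 counts. Col6a4 and Col6a6 came mainly from L3-L5 DRG 4, with 42 and 22 counts.

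Col28a1, a minor collagen described in peripheral glia, was the fourth most abundant member. It measured 45.4, 6.83, 12.6 and 9.25 RPKM in TG 1 to 4, 75.7, 33.9, 66.4 and 81.9 RPKM in NG/JG, 49.9, 35.5, 28.4 and 63.2 RPKM in L3-L5 DRG, with 61.0, 84.5, 73.3 and 34.2 RPKM for T10-L1 DRG. TG 2 to 4 were below every library of the other ganglia, and TG 1 was not. In NG/JG 3 its level was 20.3 times that of Col1a1, and in T10-L1 DRG 4 it was 0.149 times.

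The FACIT collagens decorate fibrils and the multiplexins sit at basement membranes. Col16a1 averaged 10.8 ± 5.27 RPKM in TG (8.36 RPKM without TG 1) and 29.7 ± 10.7 in T10-L1 DRG. Col18a1, the precursor of endostatin, had 1 count in TG 1 against 199, 219 and 204 in TG 2 to 4, and its NG/JG libraries lay between 11.7 and 27.7 RPKM, all above TG. Col9a2 and Col9a3, partner chains of type IX, were highest in TG 1, at 26.9 and 33.7 RPKM, and Col9a2 had no read in NG/JG 4. Col12a1 peaked at 12.9 RPKM and Col14a1 at 18.2 RPKM, both in NG/JG 4. Col19a1 had 0, 0, 1 and 2 counts in NG/JG and 35 to 111 in L3-L5 DRG. Col15a1 was above the floor in all libraries, at 0.117 to 11.0 RPKM.

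Col23a1, a transmembrane collagen, had its highest mean in TG (11.8 RPKM, and 8.70 RPKM without TG 1, where the other ganglia averaged 5.65 to 6.84 RPKM), and was at 21.2, 8.20, 7.46 and 10.4 RPKM in TG 1 to 4 against 2.88, 7.0, 7.18 and 7.61 RPKM in T10-L1 DRG. The network collagen Col8a1 was between 1.72 and 15 RPKM outside NG/JG and had 0 and 1 counts in NG/JG 2 and 3. Its partner Col8a2 did not exceed 4.28 RPKM. The remaining members, Col7a1, Col9a1, Col10a1, Col13a1, Col17a1, Col20a1, Col22a1 and Col25a1, averaged under 1 RPKM. Of the 18 members under 1 RPKM, 11 had their highest level in L3-L5 DRG 4, the library with the most genes detected.

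The ganglia were compared in 6 pairs, to ask whether collagen levels differed between ganglia beyond the spread of the libraries, with edgeR's quasi-likelihood test and p-values adjusted by Benjamini-Hochberg over all genes tested. After the filter on low counts 27 to 33 of the 43 genes were tested, and the rest had too few reads in too many libraries of the pair. A gene was called at an adjusted p under 0.05. Comparisons that share a ganglion share its libraries.

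In TG against T10-L1 DRG, 2 of 32 collagen genes tested were called, both lower in TG, where 1.54% of all 12914 genes tested were called lower, 4.33% higher and 5.87% in either direction. Col3a1 was lower in TG by a log2 fold change of -2.33 (SE 0.59, adjusted p = 0.046), and Col4a1 by -1.09 (SE 0.25, adjusted p = 0.0374). At an unadjusted p under 0.05, 6 collagen genes were lower (8.78% of all genes were) and 1 higher (12.9% of all genes were). The lower ones were Col3a1, Col4a1, Col16a1, Col28a1, Col5a2 and Col6a2, and the higher one was Col23a1, with a log2 fold change of 1.24 (SE 0.45, adjusted p = 0.135). The median log2 fold change was -0.60 over the 32 collagen genes and -0.03 over all genes tested.

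Those calls depended on the libraries used. TG 1 was singled out by its collagen levels, the values tested here. Calls without it therefore show how far the result rests on 1 library and are no separate support. Leaving out any of TG 2, TG 3, TG 4 or any T10-L1 DRG library removed both calls, and with all 16 libraries in 1 fit neither was called. RLE factors and the fit with no filter called the same genes, and DESeq2 called 3 (15.4% of all genes), Col4a3 in addition. Leaving out TG 1 raised the count to 10 of 33, all lower in TG, with 12.5% of all genes tested called lower in that fit (14.2% higher, 26.7% in all): Col1a1, Col1a2, Col3a1, Col4a1, Col4a3, Col5a2, Col6a1, Col16a1, Col18a1 and Col28a1. Col1a1 then had a log2 fold change of -2.65 (SE 0.55, adjusted p = 0.00666), and Col28a1 one of -2.30 (SE 0.33, adjusted p = 0.00111). Col4a2, the partner of Col4a1, had a log2 fold change of -0.03 in that fit (SE 0.28, adjusted p = 0.955). Col4a3, without a read in TG, passed the filter only through T10-L1 DRG and could only be called lower.

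**Figure D4:**
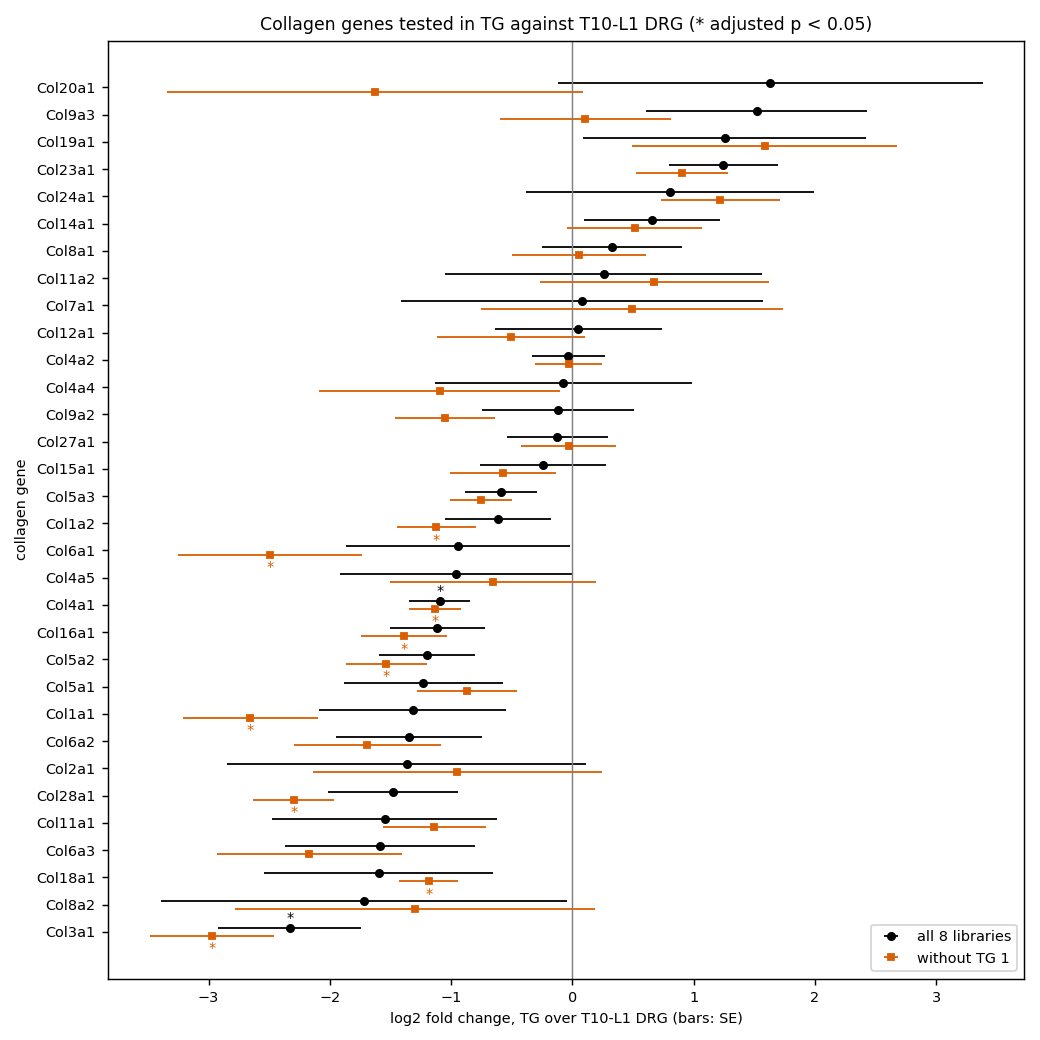
Points are log2 fold changes of TG over T10-L1 DRG with SE for the 32 collagen genes tested, with all 8 libraries (black) and without TG 1 (orange), and asterisks mark an adjusted p under 0.05. Col3a1 and Col4a1 carry an asterisk in both fits, and Col28a1 and Col1a1 only without TG 1.

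In the other 5 comparisons no collagen gene was called by edgeR's quasi-likelihood test. Over all genes, 0.0% were called in L3-L5 DRG against T10-L1 DRG, 0.0322% in NG/JG against T10-L1 DRG, 0.0% in NG/JG against L3-L5 DRG, 0.0% in TG against L3-L5 DRG and 0.051% in TG against NG/JG (0.017% lower and 0.034% higher in TG). At an unadjusted p under 0.05 in edgeR, L3-L5 DRG against T10-L1 DRG had 0 of 33 collagen genes (6.07% of all genes, 2.72% lower and 3.35% higher in L3-L5 DRG), and DESeq2 called 0 there at an adjusted p under 0.05 (0.5% of all genes). NG/JG against T10-L1 DRG had 3 of 28 (5.91% of all genes): Col1a1 and Col2a1 were lower in NG/JG, as were 4.06% of all genes, and Col12a1 was higher, as were 1.85%. Col2a1 was near 0 in NG/JG and passed the filter only through T10-L1 DRG, so its direction was fixed. NG/JG against L3-L5 DRG had 1 of 28 (6.04% of all genes, 3.68% lower and 2.35% higher), which was Col19a1, lower in NG/JG. Its direction was fixed in the same way, as it passed the filter only through L3-L5 DRG. TG against L3-L5 DRG had 1 of 33 (18.2% of all genes, 8.02% lower and 10.1% higher), which was Col23a1, higher in TG. TG against NG/JG had 1 of 27 (10% of all genes, 4.49% lower and 5.54% higher), which was Col28a1, lower in TG. DESeq2, at an adjusted p under 0.05, called 5 collagen genes in NG/JG against T10-L1 DRG (6.3% of all genes), 1 in NG/JG against L3-L5 DRG (5.67%), 1 in TG against L3-L5 DRG (11.3%) and 1 in TG against NG/JG (6.39%).

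Levels of single libraries were also compared by their ranges. In TG against T10-L1 DRG, 4 of 32 collagen genes had all TG libraries below all T10-L1 DRG libraries, Col3a1, Col4a1, Col11a1 and Col18a1, as 13.2% of all genes tested did, and 0 had them above (5.3% of all genes). In NG/JG against T10-L1 DRG, 4 of 28 had NG/JG below, Col1a1, Col2a1, Col3a1 and Col11a1 (6.41% of all genes), and 0 above (1.63%). NG/JG was below L3-L5 DRG for 1 of 28, Col19a1 (5.74%), and above for 0 (1.59%). Col2a1 and Col19a1 passed the filter only through the ganglion where they were high, so they could not have had NG/JG above. TG was below NG/JG for 1 of 27, Col18a1 (4.49%), and above for 0 (5.13%). TG was below L3-L5 DRG for 0 of 33 (12%) and above for 0 (3.96%), and L3-L5 DRG was below T10-L1 DRG for 0 of 33 (1.53%) and above for 0 (2.17%).

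The genes that DESeq2 called in these 5 comparisons were low ones, and most had been removed by the filter of the edgeR fit. Against T10-L1 DRG, Col2a1 was at least 18.2-fold lower in NG/JG, and Col19a1 was at least 17.5-fold lower in NG/JG than in L3-L5 DRG. Both compare the mean CPM of the higher ganglion with a floor of 3 counts per library. In TG against T10-L1 DRG, where DESeq2 also called it, Col4a3 was at 0 in all TG libraries. Its mean in T10-L1 DRG was 7.53-fold the floor, but T10-L1 DRG 3 was itself under the floor. Without TG 1, Col28a1 was called lower in TG against each of the other ganglia, with log2 fold changes of -1.76 (SE 0.36, adjusted p = 0.0147) against L3-L5 DRG, where 6.34% of all genes were called lower, 8.91% higher and 15.2% in all, and -2.55 (adjusted p = 0.0278) against NG/JG, where 0.928% were called lower, 1.65% higher and 2.58% in all. TG 1 was left out for its high collagen levels, Col28a1 among them, so these calls are no separate support.

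Markers of other ganglion cells were read beside the collagens. The 12 fibroblast markers, none of them a collagen, summed to 15639 to 36547 CPM in TG, 354.6 to 4909 CPM in NG/JG, 824.8 to 12342 CPM in L3-L5 DRG, with 4109.8 to 19694 CPM for T10-L1 DRG. Outside TG, where the collagen mean was lowest, only T10-L1 DRG 4 reached the range of the TG libraries in this sum. In TG the sum came mainly from the most abundant members, Apod, a secreted lipid carrier, and Dcn, a proteoglycan that binds collagen fibrils. With the 12 markers weighted evenly, as the mean of log2(CPM + 1), every other ganglion overlapped TG. That mean was 4.34 to 6.48 in TG and 2.81 to 4.62 in NG/JG. In L3-L5 DRG it was 3.48 to 6.70, and in T10-L1 DRG 4.90 to 7.53. Dcn was at 4192, 6247, 5451 and 3745 CPM in TG 1 to 4 and at 1802, 1506, 1338 and 6069 CPM in T10-L1 DRG 1 to 4. The RPKM ratio of Col3a1 to Dcn was 0.00483 to 0.0238 in TG and 0.0827 to 0.135 in T10-L1 DRG, a pair chosen after its values were seen and given with no test. The part of fibroblasts in the collagen levels was not tested.

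**Figure D5:**
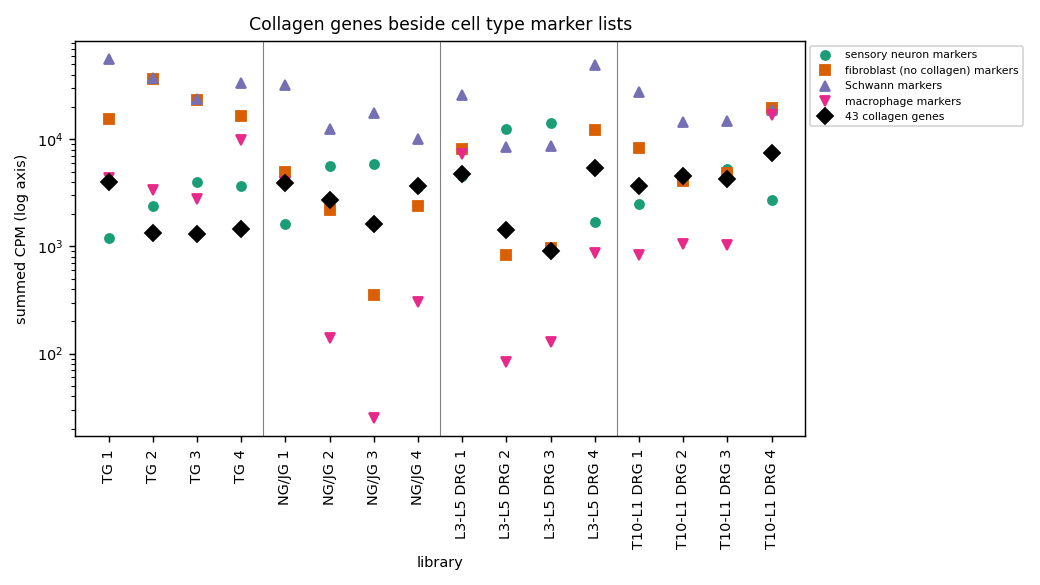
Each point is the summed CPM, on a log axis, of the 43 collagen genes or of a marker list in 1 library. In TG 2 to 4 the collagen sums of 1313 to 1454 CPM lie far below the fibroblast sums, whereas in L3-L5 DRG 3 the neuronal sum is highest (14275 CPM) and the collagen sum lowest (910.5 CPM). Sums of different lists do not give shares of RNA by cell type.

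Schwann cell markers summed to 8549.96 to 56527 CPM and satellite glia markers to 13517 to 64953 CPM over the 16 libraries. The 12 sensory neuron markers summed to 1204 to 14275 CPM. Each sum is set by its most abundant genes, so sums of different lists do not give shares of RNA by cell type. In TG 2, Apoe alone supplied 49479 of the 54996 CPM of satellite glia markers. Endothelial markers summed to 57.5 to 1728 CPM, highest in L3-L5 DRG 4. Macrophage markers were highest in T10-L1 DRG 4, at 16881 CPM, which also had the most collagen. Other libraries went the other way. TG 4 was next in macrophage markers (9915 CPM) with 1454 CPM of collagen. L3-L5 DRG 4 was next in collagen (5378 CPM) with 864 CPM of macrophage markers. The 10 mural cell markers summed to 84.7 to 492 CPM in TG, 69.4 to 236 CPM in NG/JG, 56.5 to 1395 CPM in L3-L5 DRG, with 336 to 1328 CPM for T10-L1 DRG. In all NG/JG libraries Rgs5, Kcnj8, Myh11 and Des were at or under the floor, whereas Tagln was at 19.2 to 124 CPM there. Against T10-L1 DRG, 2 of 7 mural markers tested were called lower in NG/JG, Rgs5 and Acta2, where 0.0322% of all genes tested were. In NG/JG Rgs5 was at 0.103 to 0.228 CPM and Acta2 at 0 to 0.967 CPM. Both passed the filter only through T10-L1 DRG, so lower in NG/JG was the only call open to them. Of the 8 fits that left out 1 library, Rgs5 was called in 8 and Acta2 in 1. In TG against T10-L1 DRG, 1.54% of all genes tested were called lower and 4.33% higher. Lower in TG were Rgs5, of 10 mural markers tested, and Cdh19, of 9 satellite glia markers. Cdh19 did not stand for its list. Of the 9 satellite glia markers, 6 had a positive fold change in TG and 3 a negative one. The median log2 fold change of that list was 0.21, against -0.03 over all genes tested. Higher were Mbp and Pllp, of 9 Schwann cell markers. Neutrophil markers were called lower in both comparisons, 2 of 7 in NG/JG and 3 of 7 in TG. Those called were at 0.103 to 0.696 CPM in NG/JG and 0 to 0.878 CPM in TG. They too passed the filter only through T10-L1 DRG, which fixed the direction of a call. Apart from Rgs5 in NG/JG, each marker call held in 1 to 3 of the 8 fits. The part of these cells in the collagen levels was not tested.

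Genes that make, bind or cut collagen were read from lists of their own. Of 30 biosynthesis genes with a row, 27 were tested in TG against T10-L1 DRG and 2 were called, where 1.54% of all genes tested were called lower and 4.33% higher. P4ha1, a subunit of the prolyl hydroxylase that stabilises the helix, was lower in TG by a log2 fold change of -1.48 (SE 0.27, adjusted p = 0.0254), at 54.1 to 90.6 CPM against 198 to 269 CPM. Sparc, a collagen-binding matrix protein, was higher in TG by 1.71 (SE 0.44, adjusted p = 0.0486). Of 8 collagen receptors tested none was called, 1 of 10 collagenases and inhibitors was called (Mmp9, lower in TG, log2 fold change -4.08), and 1 of 22 other matrix genes was called (Lama4, a laminin chain of basement membranes, lower in TG, log2 fold change -1.44). Mmp9 was at 0.127 to 3.44 CPM in TG and passed the filter through T10-L1 DRG. Each of these 4 calls held in 1 of the 8 fits that left out 1 library, the fit without TG 1. In the other 5 comparisons no gene of these 4 lists was called by edgeR, where 0.0% to 0.051% of all genes were.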

How the data were processed

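Per the labels, sorted Pirt+ neurons of 4 ganglia were sequenced as single reads in 16 libraries. Per the submitters' processing notes, the authors demultiplexed with bcl2fastq, aligned with TopHat2 to mm9 and counted with HTSeq, and the deposited values are raw read counts per gene, not normalized. Annotation, strand and tool versions are not given in the sources used here. Rows that name no gene were left out of library sizes. CPM used reads on genes, and RPKM used the union of exons in GENCODE M1 (mm9), which gave a length to 21679 of 22609 symbols, all 43 collagens included. Col9a3 shares 6.07% of its exon bases with Tcfl5, and the deposited tables keep ambiguous reads in a row of their own.

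Each pair of ganglia was fitted with no other library in the model, 8 at a time, in edgeR 4.0.16 under R 4.3.3 (TMM, filterByExpr, quasi-likelihood test, adjusted p under 0.05), tested on simulated data. On counts simulated for NG/JG against T10-L1 DRG, most DESeq2 calls were genes left unchanged, and the quasi-likelihood test called a minority of the changed genes. DESeq2 1.42.0, RLE factors, no filter, all 16 libraries, a replicate block and each library left out were the alternatives. Sums over members have no test. Named genes were the 20 collagens highest in mean RPKM, others called by either tool, and partner chains, and members without a call are also named where they are low. The members and lists were chosen with earlier results of these data known. Libraries of one ganglion differed by more than sampling noise. Counts limit precision as given by the floor, which covers counting error only.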

Additional observations from a re-analysis of the deposited data

Results flagged for a closer look

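Within each ganglion, the library farthest from its neighbours was looked for in 3 summed levels and in the 20 most abundant collagen genes, 92 groups of 4 libraries in all. A gap wider than Dixon's limit was found in 20 of them, and 12 of the 20 were TG 1. For normally distributed values about 1 in 20 groups would pass the limit. CPM and RPKM were not transformed, so that rate may not hold here. Genes of 1 library are not independent of each other.

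TG 1 had 3959 CPM of all collagens where the other TG libraries had 1313 to 1454, and 2494 CPM of fibrillar collagens where they had 736.7 to 854.8. Its levels of Col1a1 (109 RPKM), Col1a2 (84.0 RPKM), Col3a1 (51.4 RPKM), Col5a2 (12.1 RPKM) and Col6a1 (34.2 RPKM) were above the other 3, and so were those of Col28a1 (45.4 RPKM), Col9a2 (26.9 RPKM), Col14a1 (9.58 RPKM) and Col15a1 (6.68 RPKM). Among the genes flagged for TG 1, Col18a1 was the exception, at 0.018 RPKM in TG 1 against 5.10 to 5.58 RPKM in the others. Col5a1 and Col11a1, which were not flagged, were also lowest in TG 1 among the TG libraries.

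T10-L1 DRG 4 was high in Col3a1 (278 RPKM), Col1a2 (121 RPKM) and Col6a1 (53.5 RPKM), and T10-L1 DRG 1 was low in Col23a1 (2.88 RPKM). L3-L5 DRG 4 was high in Col5a3 (54.6 RPKM). NG/JG 3 was low in the fibrillar sum (596 CPM, others 1792 to 1944 CPM), and NG/JG 1 was high in Col9a3 (9.50 RPKM) and Col5a1 (10.8 RPKM).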

How the results depend on the processing

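The count of collagen genes called in TG against T10-L1 DRG was 2 and remained 2 with RLE factors and with no filter, was 3 with DESeq2, and fell to 0 with all 16 libraries in 1 fit and to 0 with the replicate block. Leaving out 1 library gave 0 to 10 calls there, with 10 only without TG 1. DESeq2 called 5 in NG/JG against T10-L1 DRG, 1 in NG/JG against L3-L5 DRG, 1 in TG against L3-L5 DRG and 1 in TG against NG/JG, where edgeR called 0, and leaving out 1 library gave 0 to 1 in each of the last pair. In L3-L5 DRG against T10-L1 DRG every alternative run gave 0. The 13 fold changes at an unadjusted p under 0.05 kept their sign in every refit run. For Col2a1 and Col19a1 the sign was fixed by counts near 0 in NG/JG. At an adjusted p under 0.05, 145 of the refitted values kept their status, 18 lost the call and 6 gained one. The lost calls were all of Col3a1 and Col4a1 in TG against T10-L1 DRG, and most values that kept their status were never called. With all uniquely aligned reads as denominator, the collagen sum was 1804 CPM in NG/JG and 3218 CPM in T10-L1 DRG, and the basement membrane sum 137 CPM in TG and 296 CPM in T10-L1 DRG, and the cause was not tested. Whether replicate numbers pair the samples is not given by the labels and was not settled here. In no comparison did every same-numbered pair correlate above 0.1, but differently numbered pairs were not set beside them. Same-numbered pairs ran from -0.118 to 0.148 in L3-L5 DRG against T10-L1 DRG and from 0.0508 to 0.178 in NG/JG against L3-L5 DRG. The block moved the count of called collagens in TG against T10-L1 DRG only, and in the other comparisons that count was already 0. Over all genes, that comparison gave 758 calls, 2199 with DESeq2, 427 with no filter, 238 with all 16 libraries, 0 with the block and 0 to 3583 with 1 library left out (3583 without TG 1). The length of the longest coding transcript was an alternative chosen after seeing the data. Depth limits the sparse chains, for which a count of 0 allows up to 3 reads.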
